A study of Oryctolagus cuniculus with 4 samples.

Results

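Of 10 genes that mark the primitive endoderm and the yolk sac endoderm that grows from it, 5 had a probe under their name on a rabbit microarray. The list of 10 holds 5 transcription factors (GATA4, GATA6, SOX17, SOX7 and HNF4A) and 5 secreted or surface products, with the endocytic adaptor DAB2 placed among the latter (PDGFRA, DAB2, AFP, TTR and APOA1). A probe counted for a gene when the array's gene name, its accession or its description pointed to that gene. GATA4, DAB2, AFP, TTR and APOA1 were found in this way, out of 9880 genes with a named probe on the whole array. A further probe is described as SOX7-like but carries an identifier that the RefSeq gene table gives to PINX1, a telomerase inhibitor, so it is reported apart and not counted as SOX7. GATA6, SOX17, HNF4A and PDGFRA had no probe under their name and were not analysed here.

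The samples were blastocysts of New Zealand White rabbits, all 6 days old. Parthenotes came from unfertilised oocytes activated with electrical pulses followed by cycloheximide and 6-DMAP, and developed in the reproductive tract of recipient does after transfer to the oviduct. Fertilised control embryos received no treatment and were flushed from the uterine horns of inseminated does. Whole embryos were pooled, giving 4 pools of each group, and each of 4 arrays paired a parthenote pool, labelled with Cy3, with a fertilised pool, labelled with Cy5. Since Cy3 always carried the parthenotes, dye and group cannot be told apart. Arrays are numbered 1 to 4 by the replicate number of the labels. Both genome copies of a parthenote are maternal, and SNRPN, which is expressed from the paternal copy in mammals, checked the labels: its intensity lay between 7.46 and 32.5 in the parthenote pools and between 2094 and 2314 in the fertilised pools.

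Primitive endoderm is the epithelium that forms on the inner cell mass beneath the epiblast, after FGF signals acting through ERK favour GATA6 over the pluripotency factor NANOG in some cells. GATA6, GATA4, SOX17 and SOX7 then act in it, and its descendants separate into visceral endoderm, which takes up and secretes nutrients and plasma proteins, and parietal endoderm, which lays down basement membrane. HNF4A drives the liver-like genes of visceral endoderm, among them AFP, TTR and APOA1, while DAB2 is needed for its endocytosis and its surface position. In pools of whole embryos, fewer cells of a type and less RNA per cell cannot be told apart.

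The probes below are shown because the member results rest on them, and each is 60 bases long. The array files give their positions without naming a genome build. GATA4 is measured at chr2:38226727-38226786 on the minus strand, the SOX7-like probe at chr2:39161161-39161220 on the plus strand, and APOA1 at chr1:99597012-99597071 on the plus strand. The brightest DAB2 probe spans chr11:60406600-60408090 on the minus strand. The 2 AFP probes span chr15:76641622-76642330 and chr15:76642402-76643553 on the minus strand. These 3 spans, of 1491, 709 and 1152 bases, are longer than the probes themselves. The 5 TTR probes each start 1 base after the one before, so they come close to 1 measurement.
GATA4: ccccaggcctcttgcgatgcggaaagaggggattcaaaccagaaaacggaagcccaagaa
SOX7-like: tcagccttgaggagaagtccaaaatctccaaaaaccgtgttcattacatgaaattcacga
DAB2 probe 1: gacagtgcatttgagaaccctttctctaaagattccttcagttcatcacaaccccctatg
AFP probe 1: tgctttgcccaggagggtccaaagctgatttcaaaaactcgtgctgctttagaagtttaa
AFP probe 2: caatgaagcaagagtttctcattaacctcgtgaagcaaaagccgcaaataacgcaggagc
APOA1: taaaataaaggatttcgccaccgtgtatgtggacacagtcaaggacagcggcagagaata

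Each array held 43803 spots that are not controls. A spot is named detected here where the scanner software marked it as well above background, which held for 25805 to 26339 spots of the parthenote pools and for 27508 to 27835 of the fertilised pools. Intensities below are the processed signals, in arbitrary units after background subtraction and dye normalisation, and a ratio is the log2 of parthenote over fertilised within an array, so that negative values are lower in parthenotes. A probe was called when limma's two-sided test of its 4 ratios against 0 gave a Benjamini-Hochberg adjusted p under 0.05 over all 43595 probes tested. By this rule 20.6% of all probes were called, 9.53% higher and 11.1% lower in parthenotes. The p-values measure the spread between these pools, whose arrays share 1 slide by the barcode in the file headers.

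AFP was the 1 of 5 primitive endoderm genes called, and it was lower in parthenotes. GATA4 and DAB2 were each below their fertilised partner on 4 of 4 arrays, by 1.26-fold and 1.29-fold on average, and APOA1 lay below it on 4 of 4 arrays by a very uneven amount, but none of these 3 passed the test. TTR gave no signal that could be compared, and 0 of the 5 genes were called higher. The share of 1 in 5 called lower stands beside the 11.1% over all probes, and with so few genes the count says nothing particular to them. A ratio below 0 on all 4 arrays was itself common, found for 23.6% of all probes and for 31.5% of the 24137 probes detected in 8 of 8 channels.

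**Figure D1:**
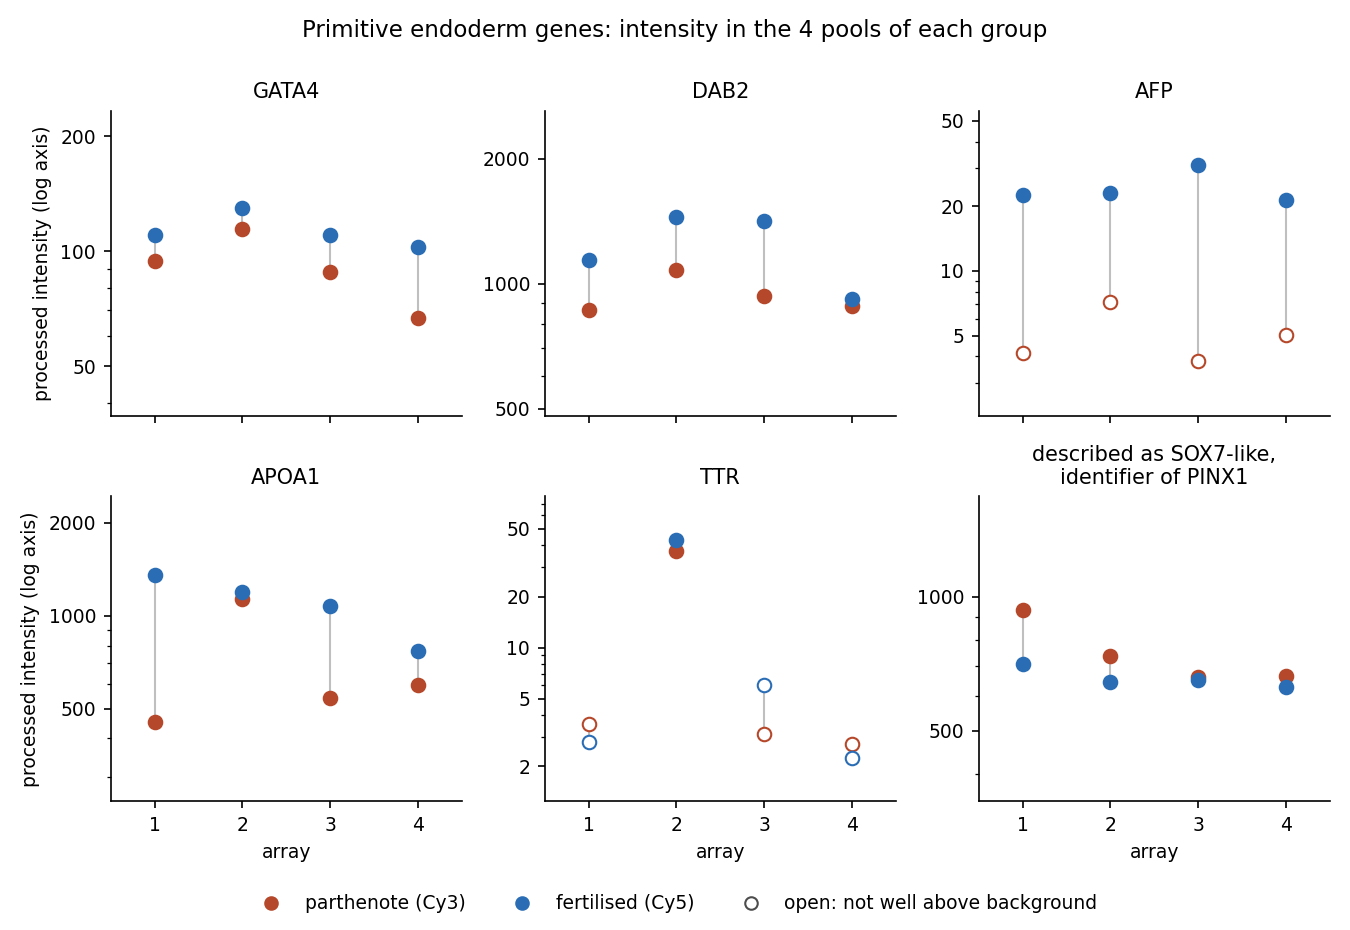
Processed intensity (log axis) of the brightest probe of each gene on arrays 1 to 4, with the parthenote pool in red, the fertilised pool of the same array in blue, and open points not detected. AFP lies between 3.82 and 7.20 in parthenotes, where it was not detected, and between 21.5 and 31.0 in fertilised embryos. The groups overlap for GATA4, DAB2, APOA1 and the SOX7-like probe.

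Among the transcription factors, GATA4 is a zinc finger factor that activates endoderm genes. Its intensity was 94.3, 115, 88.0 and 66.9 in the parthenote pools of arrays 1 to 4. The fertilised pools on the same arrays gave 110, 130, 110 and 102. Every parthenote pool lay below its partner, but the parthenote pool of array 2 exceeded the fertilised pools of arrays 1, 3 and 4, so the groups overlapped. The ratios were -0.23, -0.18, -0.32 and -0.61, a mean of -0.34 ± 0.20 (SD, n = 4) with a 95% interval from -0.60 to -0.07 and a limma adjusted p of 0.0903. When the test was limited to the 26727 probes whose parthenote or fertilised channel was detected on every array, the same values gave an adjusted p of 0.0315, in a setting where 23.8% of probes were called lower. With normexp background correction and loess in place of the deposited correction, the mean was -0.12 (limma adjusted p = 0.141).

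The SOX7-like probe is not read as a measure of SOX7, since the RefSeq gene table gives its identifier to PINX1. It gave 931, 735, 661 and 664 in parthenotes and 707, 644, 650 and 626 in fertilised embryos. It was higher in parthenotes on 4 of 4 arrays, most on array 1 and hardly at all on array 3, with a mean ratio of 0.18 ± 0.16 (SD, n = 4) and a limma adjusted p of 0.212. Centring each array on its median in place of the deposited dye correction turned this mean to -0.40, so it has no settled direction. Another 2 probes of the array are described as uterine GATA-4, but the RefSeq gene table assigns them to GATA2, a trophectoderm factor. They were read as GATA2, whose brighter probe had a mean ratio of -0.64 and a limma adjusted p of 0.0451.

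DAB2 binds cargo receptors such as megalin at the apical surface of visceral endoderm and links them to clathrin. Its brightest probe gave 867, 1077, 936 and 884 in parthenotes and 1141, 1451, 1420 and 917 in fertilised embryos. Each parthenote pool was below its partner, but on array 4 the difference nearly vanished, and the groups overlapped because the fertilised pool of array 4 was the lowest of its group. The ratios were -0.40, -0.43, -0.60 and -0.05, with a mean of -0.37 ± 0.23 (SD, n = 4), a 95% interval from -0.69 to -0.05 and a limma adjusted p of 0.102. With the same limit on the probes tested, the limma adjusted p was 0.0336.

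The 3 probes of DAB2 did not move alike. They start at positions 2109, 2190 and 2247 of the transcript, of which the brightest is at 2190. The one at 2109 had a mean ratio of -0.35, close to the brightest. The one at 2247 had a mean of -0.06 with a 95% interval from -0.61 to 0.50, and its ratio on array 4 was 0.47. None of the 3 was called.

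AFP encodes alpha-fetoprotein, the main plasma carrier made by the yolk sac and fetal liver. AFP probe 1 gave 4.15, 7.20, 3.82 and 5.01 in parthenotes and 22.6, 23.1, 31.0 and 21.5 in fertilised embryos. It was detected in 4 of 4 fertilised pools and in 0 of 4 parthenote pools. The ratios of -2.44, -1.68, -3.02 and -2.10 averaged -2.31 ± 0.57 (SD, n = 4) with a limma adjusted p of 0.0204.

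Because the parthenote side was not detected, only a bound on the fold can be given: AFP was at least 1.24-fold lower in parthenotes. This bound compares the fertilised mean with the lowest signal of any detected probe, or the probe's own signal where higher, after normexp correction with an offset of 50. That correction shrinks folds of dim probes, and the bound can carry a dye bias because dyes were not swapped. AFP probe 2, which starts at transcript position 1642 where AFP probe 1 starts at 1773, was detected in 0 of 8 channels. It read between 3.97 and 5.10 in parthenotes and between 2.89 and 3.20 in fertilised embryos, with a mean ratio of 0.35. Without detected signal it cannot contradict AFP probe 1, but it did not repeat its fertilised signal. The AFP call thus rests on AFP probe 1 alone, which is dim. Leaving out any single array ended the AFP call, with limma adjusted p-values from 0.0567 to 0.0993 and mean ratios from -2.52 to -2.07, and so did normexp and loess, with a mean of -0.34 and a limma adjusted p of 0.0664.

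APOA1 encodes the main protein of high-density lipoprotein and is made by visceral endoderm, liver and gut. Its intensity was 451, 1134, 539 and 594 in the parthenote pools. The fertilised pools gave 1351, 1192, 1071 and 768. The parthenote pool of array 2 stood apart, at about the level of the fertilised pools, while the other 3 lay below every fertilised pool. The ratios were -1.58, -0.07, -0.99 and -0.37, with a mean of -0.75 ± 0.67 (SD, n = 4), a 95% interval from -1.68 to 0.17 and a limma adjusted p of 0.195. Without array 1 the mean was -0.48, and without array 2 it was -0.98.

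TTR encodes transthyretin, which carries thyroid hormone and retinol-binding protein. Of its 5 probes, 4 were detected in 0 of 8 channels and their deposited ratio was 0 on all arrays. TTR probe 1 was detected on array 2 alone, at 37.0 in the parthenote pool and 43.2 in the fertilised pool, although TTR probe 2, which overlaps it in all but 1 base, read 3.45 and 2.60 there. On the other arrays TTR probe 1 read between 2.24 and 6.01 in either group. TTR was thus not detected at a level that allows a comparison.

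**Figure D2:**
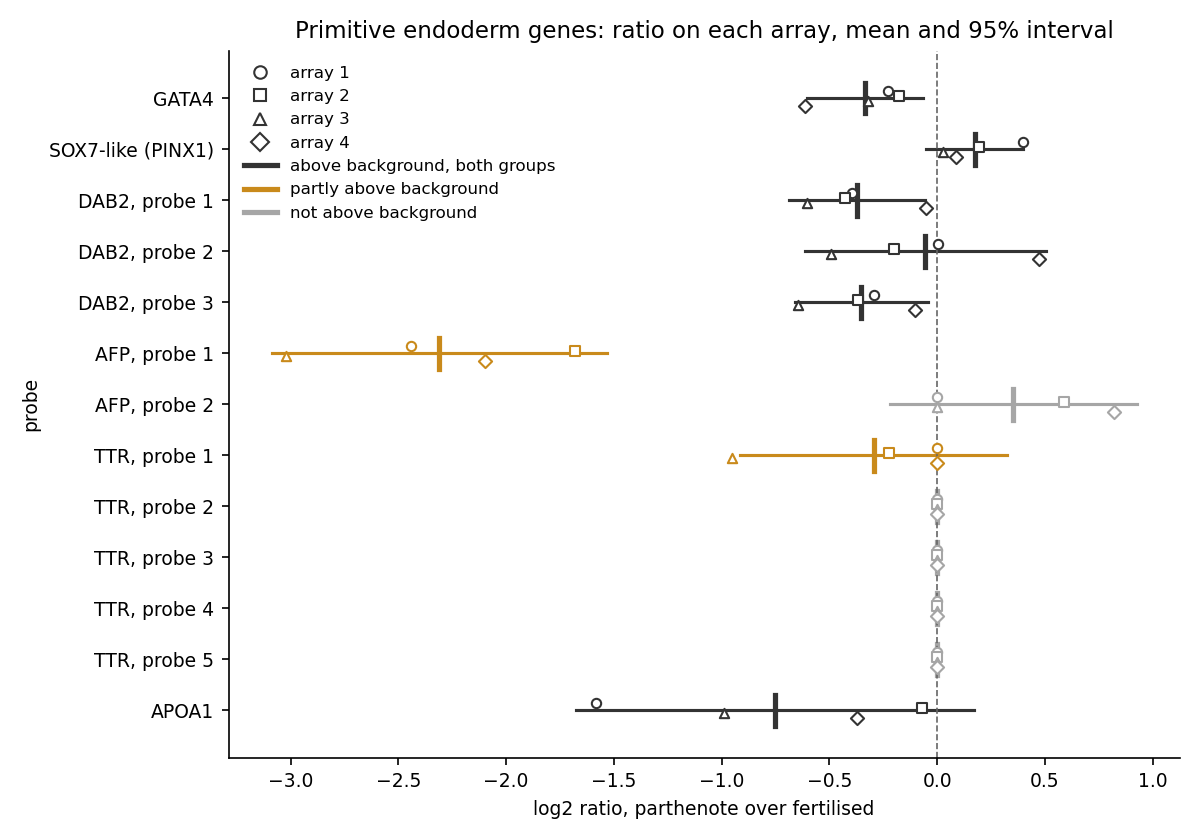
Log2 ratio of parthenote over fertilised (horizontal axis) for every probe of the primitive endoderm genes and the SOX7-like probe, with a symbol for each array, a vertical bar at the mean and a line for its 95% interval from limma. AFP probe 1 is the furthest from 0 at a mean of -2.31, GATA4 and 2 of the 3 DAB2 probes lie between -0.37 and -0.34, and 4 TTR probes sit at exactly 0.

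A wider look took 103 other genes of this lineage and of the pathway upstream of it, of which 69 had a named probe and are read here on their brightest one. In all, 4 were called higher and 5 lower, and 60 were not called. Over all probes 9.53% were called higher and 11.1% lower, but these shares include probes without detected signal. Of the 69 genes, 62 had their parthenote or fertilised channel detected on every array. Among the 24137 probes detected in both channels on all 4 arrays, 29.5% were called in either direction. Whether the counts are particular to this lineage or pathway, against probes of similar brightness, was not tested. The counts of the single lists below stand beside the same shares, and no list was tested as a set. Their median ratio was -0.09, beside 0.00 over all probes.

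Among 16 other transcription factors of primitive, visceral or parietal endoderm, 9 had a probe, with 1 called higher, 1 called lower and a median of -0.20. KLF6, a zinc finger factor expressed in yolk sac, rose on every array, by 0.39, 0.69, 0.75 and 0.63 on the log2 scale (mean 0.62, limma adjusted p = 0.0215). HHEX, a marker of anterior visceral endoderm, had the most negative mean of the list at -1.10 but was detected in 1 of 8 channels and did not pass (limma adjusted p = 0.0696).

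Of 15 endocytic and surface proteins of visceral endoderm, 10 had a probe, 1 was called higher and 0 lower, with a median of 0.14. The gene called was CLDN6, a claudin of early epithelia, with ratios of 0.24, 0.38, 0.36 and 0.23 (mean 0.30, limma adjusted p = 0.0231). LRP2, the megalin receptor whose uptake DAB2 serves, had a mean ratio of -0.06 with a limma adjusted p of 0.706.

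Of 26 secreted plasma, transport and patterning proteins, 17 had a probe, and 0 were called in either direction, with a median of -0.05. This list holds the genes most like AFP, TTR and APOA1 in function. Transferrin (TF), the iron carrier, came closest, with ratios of -0.83, -0.83, -0.56 and -0.27 on its brightest probe (mean -0.62, limma adjusted p = 0.0503), and 3 of its 5 probes were called lower. The apolipoproteins APOA2, APOB and APOE had means of -0.12, -0.12 and -0.05 with limma adjusted p-values of 0.419, 0.481 and 0.851. ALB and FGA were detected in 0 of 8 channels. CER1, a Nodal antagonist of anterior visceral endoderm, had a mean of -0.69 (limma adjusted p = 0.0815), and NODAL itself had a mean of 0.60 (limma adjusted p = 0.125).

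Of 16 basement membrane genes made by parietal endoderm, 10 had a probe, with 2 called higher, 1 called lower and a median of 0.20. PLOD2, which hydroxylates lysines of collagen, rose by 0.67, 0.50, 0.76 and 0.73 (limma adjusted p = 0.0127), and all 3 of its probes were called. COL4A1, a chain of type IV collagen, rose by 0.17, 0.43, 0.40 and 0.39 (limma adjusted p = 0.0347). LAMC1, the gamma chain of most laminins, went the other way, with ratios of -0.52, -0.34, -0.67 and -0.66 (mean -0.55, limma adjusted p = 0.0253). Genes of the same matrix differed in direction.

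Of 30 genes of the FGF, ERK and PDGF pathway, 23 had a probe, with 0 called higher, 3 called lower and a median of -0.13. FGFR4, a receptor, had ratios of -0.43, -0.31, -0.31 and -0.28 (mean -0.33, limma adjusted p = 0.0146). MAPK3, which encodes the kinase ERK1, had ratios of -0.43, -0.29, -0.43 and -0.34 (mean -0.37, limma adjusted p = 0.0143). SPRY1, a feedback inhibitor induced by FGF, had ratios of -0.62, -0.48, -0.31 and -0.64 (mean -0.51, limma adjusted p = 0.0272). DUSP6, another feedback target, had a mean of 0.31 on its brightest probe and was not called (limma adjusted p = 0.0521), while 2 of its 5 probes were called higher. FGF4 and FGFR3 had no probe under their name and were not analysed here.

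**Figure D3:**
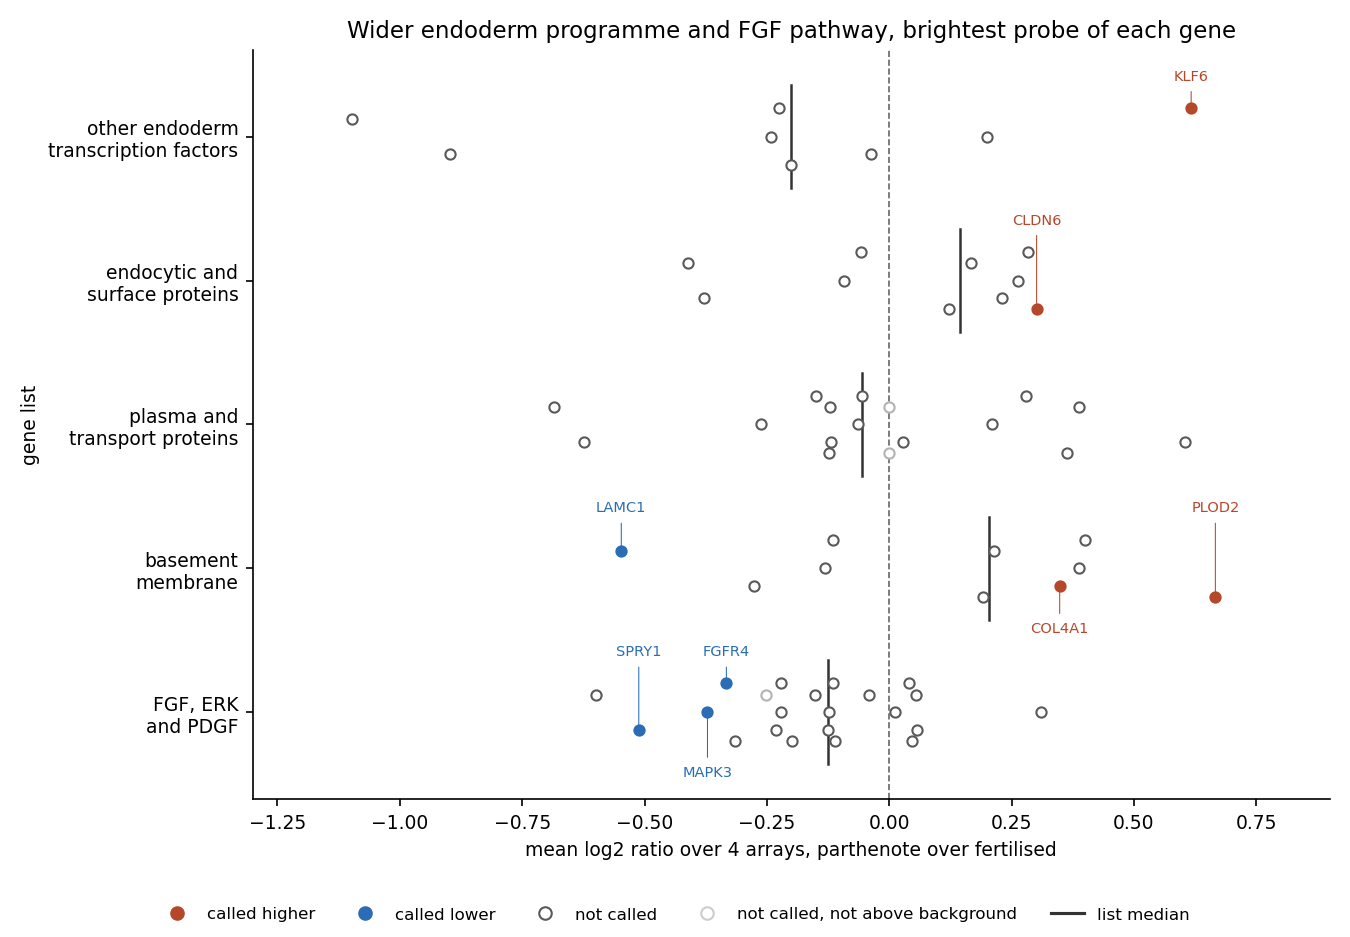
Mean log2 ratio over the 4 arrays (horizontal axis) of the brightest probe of each gene in 5 lists of endoderm and FGF pathway genes, with called genes filled and named, genes not detected in pale outline and a vertical bar at each list's median. The called genes drawn are 4 on the higher side and 4 on the lower side, and the list medians lie between -0.20 and 0.20.

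Markers of other cell types were read in the same way. The epiblast and trophectoderm lists had small medians, -0.14 over 6 genes and -0.11 over 14. Of the epiblast markers, POU5F1 rose by 0.21 (limma adjusted p = 0.0118), DNMT3B fell by 0.25 (limma adjusted p = 0.0338), and GDF3, the brightest, had a mean of -0.37 that rested on -1.52 on array 1. Among trophectoderm markers, KRT8 and KRT23 were called higher and GATA2 and DLX3 lower. KRT23 was detected in 1 of 4 parthenote pools and 0 of 4 fertilised pools, so no bound on its fold is given. Of its 4 probes, 2 were called. FABP3, the brightest of that list, had a mean of 0.09.

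Of 8 markers of primitive streak and germ layers, WNT3 alone was called, lower in parthenotes at -0.69 (limma adjusted p = 0.0158). TBXT, which defines the streak, was detected in 1 of 4 parthenote pools and 3 of 4 fertilised pools, with a mean ratio of -1.18 and a limma adjusted p of 0.0566. CER1, the brightest of these, is described above.

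Of 9 oviduct and uterine epithelium markers with a probe, 5 were called higher and 0 lower, with a median of 2.08. SPP1 had ratios of 3.35, 4.36, 3.78 and 6.73, OVGP1 had 3.95, 3.46, 3.91 and 4.14, and SCGB1A1 had 2.18, 2.80, 2.74 and 3.28. The summed intensity of the list ran from 9945 to 35271 in parthenotes and from 4836 to 8542 in fertilised embryos. FOXJ1, a marker of ciliated cells, and ESR1 have 1 probe each and were detected in 0 of 8 channels. An undetected FOXJ1 probe cannot show that ciliated cells were absent. WFDC2, the brightest of the list, had ratios of -1.52, 0.60, 0.26 and 0.71, so that array 1 alone brought its mean to 0.01.

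Of 9 leukocyte markers 5 were called higher, led by CD48 at 1.85, CD14 at 0.92 and ITGB2 at 0.60. PTPRC, which defines leukocytes, and the T cell marker CD3E were detected in 0 of 8 channels. CD3D, another T cell marker, was detected in every pool and called higher at 0.14 (limma adjusted p = 0.0142). The summed intensity of the 9 leukocyte markers ran from 943 to 1101 in parthenotes and from 586 to 657 in fertilised embryos. Of 10 stroma and smooth muscle markers, TAGLN alone was called, at 0.66, and COL1A1, ACTA2, PDGFRB and POSTN were detected in 0 of 8 channels. The summed intensity was 3665 to 5075 in parthenotes and 2343 to 3222 in fertilised embryos. The part of these cell type differences in the values of AFP, GATA4, DAB2 and APOA1 was not tested.

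Of 10 liver markers, 2 were called higher and 1 lower, with a median of 0.00. ALB, the defining product of hepatocytes, and TDO2 and G6PC1 were detected in 0 of 8 channels. ARG1 was called higher (limma adjusted p = 0.0323). It was detected in 3 of 4 parthenote pools and 0 of 4 fertilised pools, so no bound on its fold is given. AMBP rose by 0.56, and CYP7A1, the rate-limiting enzyme of bile acid synthesis, fell by 0.58 on its brightest probe (limma adjusted p = 0.0429), the only one of its 4 probes to be called.

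**Figure D4:**
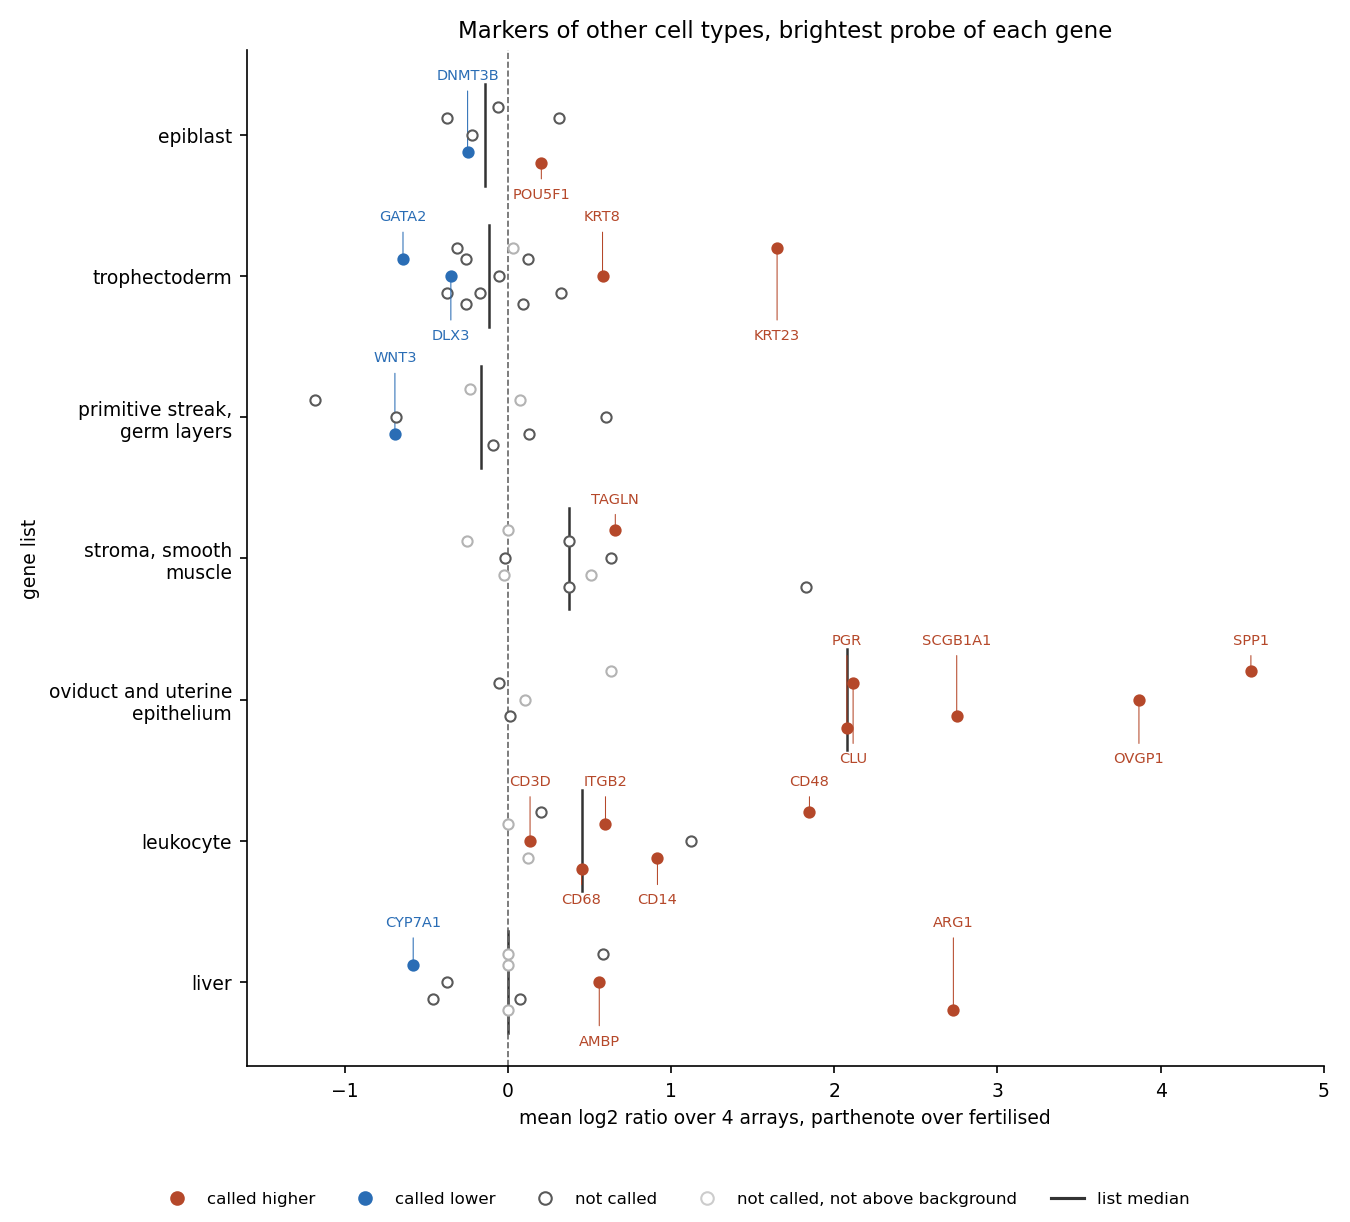
Mean log2 ratio over the 4 arrays (horizontal axis) of the brightest probe of each marker in 7 cell type lists, drawn as in the plot of endoderm lists. The oviduct and uterine epithelium markers reach 4.55 with a median of 2.08, while epiblast, trophectoderm and germ layer medians lie between -0.16 and -0.11.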

How the data were processed

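RNA of 4 parthenote pools and 4 fertilised pools, 150 ng of each, was labelled and measured on 4 two-colour Agilent arrays. The authors extracted the spots with Agilent Feature Extraction 10.10.1.1, per the labels. The mean and local background intensity deposited for each spot are not normalised. The processed intensity that the authors deposited is background-subtracted and dye-normalised, and the deposited log10 ratio is Cy5 over Cy3, set to 0 where neither channel holds usable signal. The value table the authors deposited holds this log10 ratio with its sign turned. A t-test in GeneSpring is described in the methods.

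Here the sign of the ratios was turned, so that parthenote stands over fertilised, and their base changed to 2 (log2). Control spots were removed, marked outlier spots set to missing (26 to 48 per array) and spots of a probe averaged. Probes with values on at least 3 arrays were fitted with limma 3.58.1 in R 4.3.3 (lmFit, eBayes), with matplotlib 3.10.9, scipy 1.17.1, pandas 2.3.3 and numpy 2.4.6 under Python 3.11.15 for the remaining steps. Each array pairs its pools: deviations from the group mean correlated by 0.60 to 0.65 between its channels and by about -0.21 with channels of other arrays. Ratios correlated by 0.67 to 0.81 between arrays. The test was tested on simulated data. Precision is limited by the number of arrays.

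Of 43603 probes, 22326 received a gene symbol, by RefSeq accession (12536), gene identifier (8564), another probe of the transcript (488), gene name (374) or symbol in the description (363), and 1 by description against its identifier. The RefSeq table, of assembly mOryCun1.1, gave names only. The members and all gene lists were chosen with earlier results of these data known. Named genes are all members, in each pathway list up to 4 called genes per direction with the same sign on 4 of 4 arrays, in each cell type list up to 3 by that rule and the brightest gene. Others (HHEX, LRP2, transferrin and the apolipoproteins, CER1, NODAL, DUSP6, TBXT, CD3D and the undetected markers) were chosen after their values were seen. A gene with several probes is read on the brightest. Promoter sequence, set down for a motif search, was not analysed here. Values of 2 genes of the wider lists, which enter the counts and medians, and some probe sequences are not reported here.

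Alternatives were normexp correction (offset 50) with loess, the same with local backgrounds more than 50 units above their spot reset to the array's median, and that with median centring, the ratio of the processed signals, the value table, the dim-probe filter, marked spots kept, the methods' t-test, channels unpaired, an intensity trend with robust estimation, each replicate left out, and the mean of a gene's probes.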

Additional observations from a re-analysis of the deposited data

Results flagged for a closer look

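Among 42 ratios of members and named genes looked at, 4 had an array far from the other 3, by Dixon's test at a level that chance passes in about 1 of 20 groups. Array 1 was the outlying one for COL4A1, at 0.17 where the others lay between 0.39 and 0.43, for GDF3, at -1.52 where the others lay between -0.05 and 0.09, and for FABP3, at -0.16 where the others lay between 0.15 and 0.20. For CYP7A1 it was array 3, at -0.92 where the others lay between -0.50 and -0.45. None of the primitive endoderm genes was among them.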

How the results depend on the processing

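Over all probes, counts higher and lower in parthenotes were 18827 and 18943 with median centring, which corrects no dependence of the dye effect on brightness, 13912 and 7487 with the ratio of the processed signals, whose median over the probes of an array lay between 0.09 and 0.11 on the log2 scale, 6405 higher with repaired normexp and loess, and 2032 and 2403 with the methods' t-test, against 4155 and 4841 as reported. Without the replicate block, that is without pairing the pools of an array, 11112 were higher. With 1 array left out they ranged from 531 to 2658 higher and from 708 to 3078 lower.

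Of the 5 primitive endoderm genes, 3 were lower with repaired normexp and loess and with the processed ratio. Over all 43595 probes, 6681 and 7487 were lower in these settings. With the dim-probe filter, 3 of the 4 genes tested were lower, beside 23.8% of probes. TTR did not pass that filter, and AFP passed it through its fertilised channel alone. With median centring 4 genes were lower and 1 higher, beside 18943 and 18827 of all probes, and 0 were lower without any 1 array. GATA4 passed with median centring (-0.33), the processed ratio and the dim-probe filter (both -0.34), and was smaller and not called with normexp and loess (-0.12) and its repaired form (-0.13). DAB2 passed with normexp and loess (-0.33), the repaired form (-0.35), median centring (-0.96), the processed ratio and the dim-probe filter (both -0.37). APOA1 passed with repaired normexp and loess (-0.72) and median centring (-1.28). AFP, called at -0.41 in the repaired form, at -0.18 with median centring and at -0.98 as the mean of its probes, failed with normexp and loess (-0.34) and without any 1 array (-2.52 to -2.07). With median centring TTR turned to 0.31 and the SOX7-like probe to -0.40. The mean of GATA4, DAB2, AFP and APOA1 stayed below 0 in every alternative run. Leaving channels unpaired, the methods' t-test, the intensity trend, marked spots, the value table (the same ratios, so no check) and the mean of a gene's probes changed no call of these genes.

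Of the 69 wider endoderm and FGF pathway genes, counts higher and lower were 7 and 8 with repaired normexp and loess, 10 and 44 with median centring, 10 and 10 with the processed ratio, 7 and 9 with the dim-probe filter, 8 and 8 unpaired and 8 and 8 with the mean of a gene's probes, with 2 lower by the methods' t-test, and from 0 to 4 in each direction with 1 array left out. The causes of these changes were not tested. The dim-probe filter tests fewer probes, and leaving out an array uses fewer samples. Dim signal limits AFP and TTR.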
